A study of Homo sapiens with 6 samples.

Results

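The genes of the ATR-CHK1 checkpoint were followed after silencing of METTL16 in PANC-1, a cell line established from a human carcinoma of the pancreatic duct. METTL16 is a methyltransferase that places N6-methyladenosine on RNA. The members were the 10 rows of the expression table named ATR, ATRIP, ETAA1, RAD17, RAD9A, RAD1, HUS1, RHNO1, CHEK1 and CHEK2, out of 58735 genes. They were taken by name, as parts of a known pathway, with earlier results of these data known. RNA-seq covered 2 groups of PANC-1 cells, 3 samples that received a control siRNA (si-NC) and 3 in which an siRNA targeted METTL16 (si-METTL16), all grown in DMEM with fetal bovine serum and antibiotics. The sources used here name no DNA-damaging agent. The titles call the control samples si-NC while another label calls their transfection WT, and the methods describe the sequenced cells as stably transfected. The study lists 3 siRNAs against METTL16, and which of them these samples received is not stated in the sources used here. METTL16 itself, with 1546, 1641 and 1764 counts in the si-NC samples, had 571, 528 and 627 counts in the si-METTL16 samples, so every silenced sample lay below every control.

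The checkpoint works as a relay. Single-stranded DNA at a stalled replication fork is coated by the RPA complex, which ATRIP binds, bringing in the kinase ATR. In parallel, RAD17 together with the small RFC subunits loads a ring of RAD9A, RAD1 and HUS1, the 9-1-1 clamp, onto the DNA junction. The clamp, with RHNO1, brings in TOPBP1, which switches ATR on, and ETAA1 can do so from RPA itself. ATR then phosphorylates the kinase CHK1 (CHEK1) with the help of claspin (CLSPN), and CHK1 restrains the CDC25 phosphatases, so that origin firing and entry into mitosis are held back. CHK2 (CHEK2) is the kinase downstream of ATM, which responds to broken ends.

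Total counts were between 15725298 and 18054436 per sample, mitochondrial genes held 4.91% to 5.59% of them, and no 2 samples of a group were alike enough to be the same library deposited again. The 6 ductal epithelial markers (KRT7, KRT8, KRT18, KRT19, SOX9 and EPCAM) summed to 3039 to 4108 CPM (counts scaled to a common library size) in si-NC samples. In si-METTL16 samples they summed to 3266 to 3566 CPM. Most of the sum came from KRT8 and KRT18, with means of 2139 and 1146 CPM in si-NC samples. KRT7 and EPCAM were low there, with means of 6.55 and 7.75 CPM. After silencing KRT7, KRT19 and SOX9 fell, and KRT8, KRT18 and EPCAM were not called. The acinar, endocrine, endothelial and immune lists each summed to at most 0.913 CPM in any sample, and CPA1, GCG and CD3E were at 0 in all of them. The fibroblast list summed to 323 to 374 CPM in si-NC and 801 to 840 CPM in si-METTL16 samples, almost all of it from COL1A1, which rose, while DCN, PDGFRB and LUM had too few counts to be tested and none of the 3 exceeded 0.449 CPM. The part of COL1A1 or the keratins in the results was not tested.

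CHEK1 and CHEK2 rose after silencing of METTL16, ATR fell a little, and the other 7 members showed no change that passed the test. Libraries were scaled by the TMM method, and all genes with enough counts, 15089 including all 10 members, entered a single edgeR fit. A gene was called where its p, adjusted over all of them, was under 0.05. CHEK1 and CHEK2 were called higher and ATR lower, which makes 3 of 10 members, where 35.9% of all tested genes were called (18.4% of all tested genes higher and 17.5% lower). The values of the groups did not overlap for 5 members (ATR, HUS1, RHNO1, CHEK1 and CHEK2), and for 50.9% of all tested genes. The median log2 fold change of the members was 0.16, against 0.00 over all tested genes, and the median of its absolute value was 0.19, against 0.33. The members as a set therefore held no larger share of called genes than the table as a whole, and the description rests on single genes. In bulk RNA, a change in the number of cells that express a gene and a change in the amount per cell cannot be told apart.

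**Figure D1:**
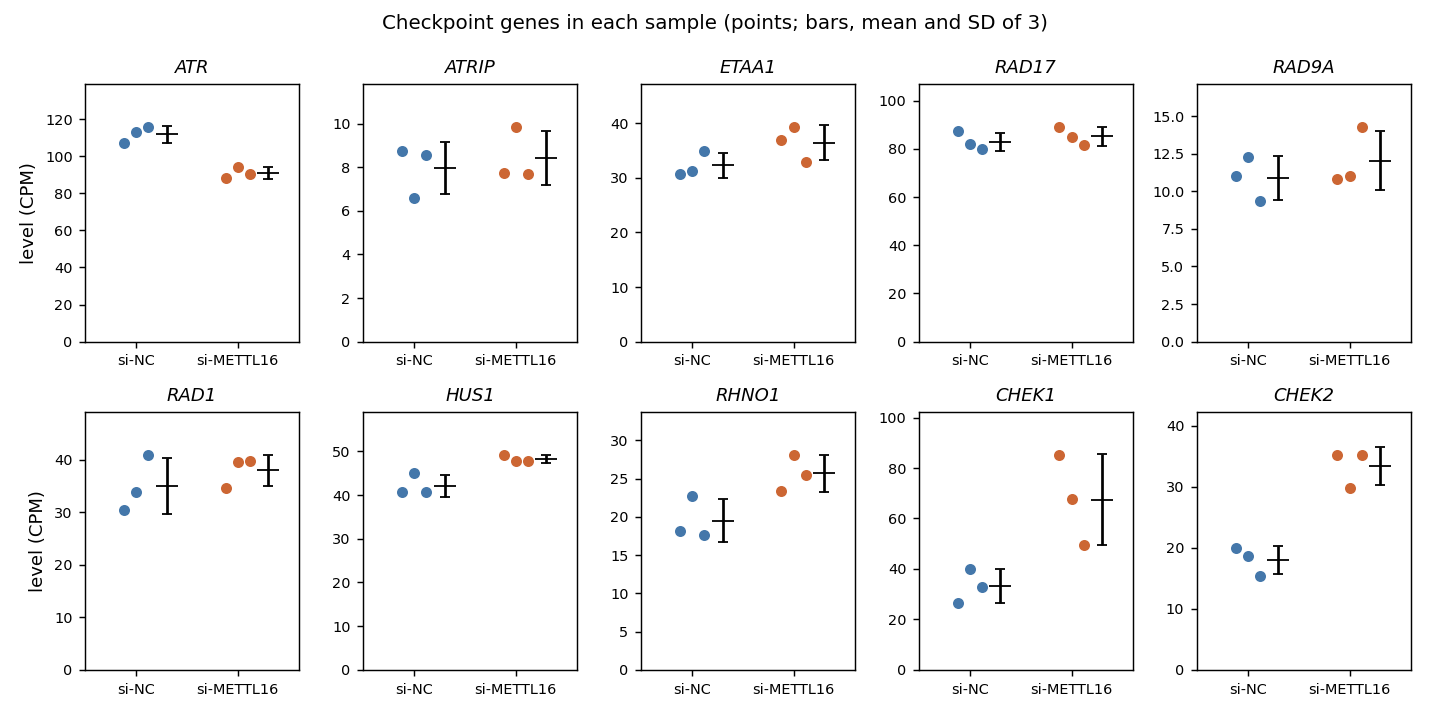
Level of each of the 10 checkpoint genes in CPM (vertical axes, starting at 0) in the 3 si-NC and 3 si-METTL16 samples; points are samples and black bars the mean and SD of 3. CHEK1 and CHEK2 stand apart upwards and ATR downwards, while the RAD17, RAD9A, RAD1, ATRIP and ETAA1 points overlap.

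The sequence around the start sites is shown for 4 members, those that passed the test and RAD1, which like CHEK2 shares its window with a neighbour. Sharing is not limited to these. The first RAD17 window, not printed, shares 93 and 203 bases with opposite-strand windows of TAF9 and of AK6. The first ATRIP window shares 258 bases with that of ATRIP-TREX1 on the same strand. Windows were taken from RefSeq (GRCh38.p14), from 250 bases before to 50 bases after the start site, and 8 of the 10 members had at least 1, in 13 windows. Capitals mark the CCAAT box, CCAAT or its reverse ATTGG, the binding site of NF-Y. The window of CHEK2 (chr22:28741771-28742070, minus strand) shares 282 and 289 bases with the 2 windows of HSCB, its neighbour on the opposite strand, and that of RAD1 (chr5:34915455-34915754, minus strand) shares 294 bases with that of BRIX1. The window of CHEK1 (chr11:125625979-125626278, plus strand, the first of 3) shares 166 bases with that of the opposite-strand locus LOC118567325, and the window of ATR (chr3:142578684-142578983, minus strand) shares none with that of another gene.
CHEK2: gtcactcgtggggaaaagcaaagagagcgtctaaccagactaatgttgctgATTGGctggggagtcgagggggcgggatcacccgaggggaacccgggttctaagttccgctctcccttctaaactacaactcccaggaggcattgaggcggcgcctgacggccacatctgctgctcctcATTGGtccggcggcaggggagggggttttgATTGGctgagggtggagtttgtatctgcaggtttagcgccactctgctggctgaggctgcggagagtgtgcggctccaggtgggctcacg
CHEK1: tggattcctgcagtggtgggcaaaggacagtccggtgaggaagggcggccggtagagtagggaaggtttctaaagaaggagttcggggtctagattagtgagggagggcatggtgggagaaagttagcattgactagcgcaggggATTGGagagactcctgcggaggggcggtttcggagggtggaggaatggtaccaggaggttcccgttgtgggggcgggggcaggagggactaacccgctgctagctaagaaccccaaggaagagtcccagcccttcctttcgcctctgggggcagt
RAD1: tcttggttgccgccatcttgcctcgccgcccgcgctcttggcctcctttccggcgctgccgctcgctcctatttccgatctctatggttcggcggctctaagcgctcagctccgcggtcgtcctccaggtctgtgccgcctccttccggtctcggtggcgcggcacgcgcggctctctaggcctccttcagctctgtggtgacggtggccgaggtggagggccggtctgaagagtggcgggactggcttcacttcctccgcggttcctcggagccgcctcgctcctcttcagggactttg
ATR: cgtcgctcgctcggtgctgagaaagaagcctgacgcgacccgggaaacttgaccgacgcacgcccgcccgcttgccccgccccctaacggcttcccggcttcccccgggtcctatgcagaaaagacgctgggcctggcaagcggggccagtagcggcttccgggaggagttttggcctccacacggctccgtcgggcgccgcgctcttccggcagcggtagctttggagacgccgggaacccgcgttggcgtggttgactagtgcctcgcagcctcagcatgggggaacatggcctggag
CHEK2 holds 3 CCAAT boxes, as does the third CHEK1 window, whereas the windows of RAD1 and ATR hold 0. At least 1 CCAAT box was present in 10 of the 13 windows, and in 34.6% of all 35116 windows of the same length. The E2F core motifs TTTCCCGC, TTTCGCGC, TTTGCCGC and TTTGGCGC were in 0 of the 13 windows on either strand, and in 3.31% of all windows. The CHR element TTTGAA, a mark of G2/M genes, was in 1 window, the second of RAD17, and in 15.2% of all windows. Overlapping windows of 1 gene are not separate observations, and a match or its absence describes these letters only. The windows follow RefSeq start sites. For CHEK1, CHEK2, RAD1, RAD17 and RAD9A they do not contain the start of the gene span in the deposited data, which was not searched. The CHEK1 windows, for example, begin at 125625974 or later, whereas that span begins at 125625136.

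CHEK1 encodes CHK1, the kinase that ATR phosphorylates, and lies on chromosome 11 from 125625136 to 125676255 (GRCh38, as all coordinates of the deposited table). It was measured at 26.5, 40.0 and 33.0 CPM in si-NC replicates 1, 2 and 3 and at 85.2, 67.7 and 49.3 CPM in si-METTL16 replicates 1, 2 and 3. All silenced samples were above all controls, but they were spread widely, and the lowest of them was closer to the highest control than to the highest silenced sample. The fold change was 2.03, with a 95% interval from 1.41 to 2.92 (log2 fold change 1.02, standard error 0.22, adjusted p = 0.0112). Without si-METTL16 replicate 1, the highest sample, the log2 fold change was 0.81.

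CHEK2 encodes CHK2, the kinase of the ATM branch, and lies on chromosome 22 from 28687743 to 28742422. Its levels were 20.0, 18.6 and 15.4 CPM in the si-NC samples and 35.1, 29.7 and 35.2 CPM in the si-METTL16 samples. The groups were well separated and less spread than for CHEK1. The fold change was 1.85, with an interval from 1.51 to 2.28 (log2 fold change 0.89, standard error 0.13, adjusted p = 0.00196). CHEK1 and CHEK2 lie beyond 90.6% and 87.0% of tested genes in the size of their log2 fold change.

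ATR is the kinase that starts the relay, and its gene lies on chromosome 3 from 142449235 to 142578826. It was measured at 107, 113 and 116 CPM in si-NC samples and at 88.3, 94.4 and 90.4 CPM in si-METTL16 samples. Replicates were tight in both groups and the ranges lay apart, so that a small difference could be resolved. ATR fell to 81.4% of the control level (log2 fold change -0.30, standard error 0.06, 95% interval -0.45 to -0.15, adjusted p = 0.00982), a smaller change in absolute terms than that of the median tested gene.

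ATRIP, the obligate partner of ATR, on chromosome 3 from 48446710 to 48467645, had the fewest counts of the members, at 8.76, 6.60 and 8.56 CPM in si-NC and 7.74, 9.87 and 7.68 CPM in si-METTL16 samples. The ranges overlapped, and the log2 fold change of 0.08 had an interval from -0.33 to 0.48 (adjusted p = 0.748), which is too wide to tell a change of the size seen for ATR from none. ETAA1, the activator that works independently of the clamp, on chromosome 2 from 67397319 to 67412089, stood at 30.8, 31.2 and 35.0 CPM in si-NC and 37.0, 39.4 and 33.0 CPM in si-METTL16 samples. Its lowest silenced sample lay inside the control range (log2 fold change 0.17, interval -0.06 to 0.41, adjusted p = 0.217).

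**Figure D2:**
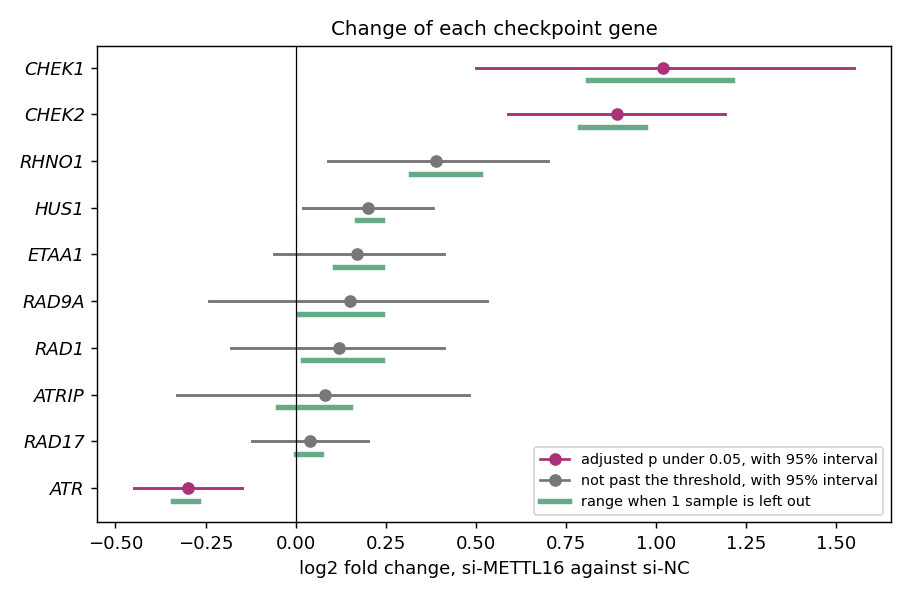
Log2 fold change of each member, si-METTL16 against si-NC (horizontal axis), with the 95% interval from the edgeR fit (line through the point) and the range when 1 of the 6 samples was omitted (green bar below). The intervals of CHEK1, CHEK2, RHNO1 and HUS1 lie above 0 and that of ATR below it, and the adjusted p passes the threshold for CHEK1, CHEK2 and ATR.

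The clamp genes and RAD17 showed small differences. RAD17, the clamp loader subunit, on chromosome 5 from 69369293 to 69414801, had the smallest log2 fold change of the members, with 87.2, 81.8 and 79.8 CPM in si-NC and 89.2, 85.1 and 81.4 CPM in si-METTL16 samples. Its log2 fold change of 0.04 had an interval from -0.12 to 0.20 (adjusted p = 0.684), so a change of more than 1.15-fold in either direction lies outside it. HUS1, a clamp subunit on chromosome 7 from 47963288 to 47979553, stood at 40.7, 45.1 and 40.6 CPM in si-NC and at 49.2, 47.9 and 47.7 CPM in si-METTL16 samples. The groups did not overlap, but the difference did not pass the threshold (log2 fold change 0.20, standard error 0.08, adjusted p = 0.085). RAD1, its partner in the ring, on chromosome 5 from 34905264 to 34918989, was at 30.4, 33.8 and 40.9 CPM in si-NC and at 34.6, 39.5 and 39.7 CPM in si-METTL16 samples, and here si-NC replicate 3 was the highest of all 6. RAD9A, which carries the tail that TOPBP1 recognises, on chromosome 11 from 67317871 to 67398410, was at 11, 12.3 and 9.35 CPM in si-NC and at 10.8, 11 and 14.3 CPM in si-METTL16 samples. The log2 fold changes of RAD1 and RAD9A were 0.12 (interval -0.18 to 0.41) and 0.15 (interval -0.24 to 0.53), with adjusted p of 0.513 and 0.515.

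RHNO1, a small protein that bridges the clamp and TOPBP1, on chromosome 12 from 2876258 to 2889523, lay at the threshold. It was measured at 18.2, 22.7 and 17.6 CPM in si-NC samples and at 23.4, 28.1 and 25.5 CPM in si-METTL16 samples. The lowest silenced sample was just above the highest control. The log2 fold change was 0.39 (standard error 0.13, interval 0.09 to 0.70), with an adjusted p of 0.0513. The call depended on the setting: RHNO1 passed in 5 of 14 alternatives, among them the replicate block (adjusted p = 0.0337), the Wald test of DESeq2 (0.0393), limma on voom values (0.0466) and the fit that omitted si-NC replicate 2 (adjusted p = 0.0211, log2 fold change 0.51), while the highest adjusted p was 0.147.

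The levels of different genes were compared as FPKM, which also divides by gene length. In si-NC cells RAD17 was highest, at 9.51 ± 0.429 FPKM (SD, n = 3), and ATRIP lowest, at 0.911 ± 0.136 FPKM (SD, n = 3), a ratio of 10.4. ATR (7.26 FPKM) and HUS1 (7.12 FPKM) came next, both below RAD17 in every sample, and could not be ordered between themselves because their ranges overlapped. ETAA1, RAD1, CHEK1, CHEK2 and RHNO1, at 3.31, 3.19, 2.70, 2.21 and 2.01 FPKM, formed a run in which each range overlapped the next, and RAD9A (1.45 FPKM) and ATRIP lay below them without overlap. In si-METTL16 cells CHEK1 (5.40 ± 1.41 FPKM, SD, n = 3) and CHEK2 (4.03 ± 0.378 FPKM, SD, n = 3) had means at ranks 4 and 5, against ranks 6 and 7 in the controls. Both lay above RAD1 (3.40 FPKM) in every sample, but neither could be ordered against ETAA1 (3.68 FPKM), whose highest sample reached the lowest of CHEK1 and overlapped the range of CHEK2. The range of CHEK1 then overlapped that of ATR (5.82 FPKM), and HUS1 (8.05 FPKM) lay above ATR without overlap. Within the clamp, whose subunits join in equal numbers, the mRNA levels were unequal in both groups, with HUS1 highest and RAD9A lowest.

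Ratios of 2 genes within a sample do not depend on the scaling of that sample. For 5 pairs, the log2 ratio of FPKM was compared between the groups by a two-sided exact permutation test, which with 3 samples against 3 cannot go below p = 0.1. The CHEK1 to CHEK2 ratio was 0.879, 1.43 and 1.42 in si-NC and 1.61, 1.51 and 0.93 in si-METTL16 samples, and overlapped, so no difference between the rises of the kinases was detected (log2 difference 0.11, exact p = 0.5, adjusted p = 1). The ATR to ATRIP ratio was 6.91, 9.75 and 7.69 in si-NC and 6.48, 5.43 and 6.69 in si-METTL16 samples. It was the only ratio of the 5 whose groups did not overlap (log2 difference -0.38, exact p = 0.1, adjusted p = 0.5). The RAD9A to RAD1, RAD9A to HUS1 and HUS1 to RAD1 ratios overlapped between the groups, with log2 differences of 0.02, -0.06 and 0.08 and exact p of 1, 0.8 and 0.8. Among the clamp genes, no ratio moved by more than its spread over samples.

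**Figure D3:**
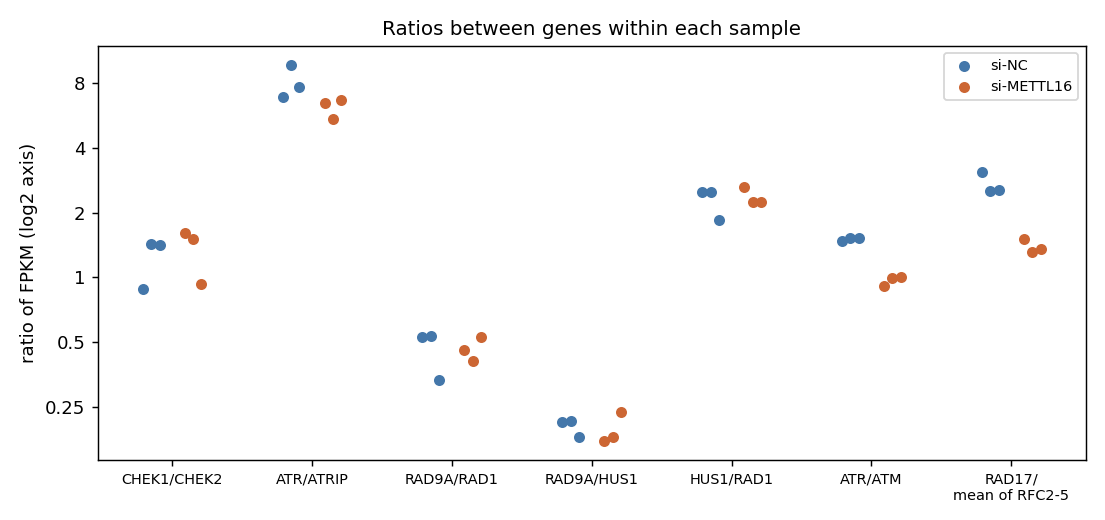
Ratio of the FPKM of 2 genes within each sample (vertical axis, log2 scale); points are the 3 si-NC and 3 si-METTL16 samples. The ratios among clamp genes and of CHEK1 to CHEK2 overlap between the groups. ATR to ATM and RAD17 to the mean of RFC2 to RFC5 are lower in all si-METTL16 samples. These last ratios were chosen after the values were seen and were not tested.

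A list of 42 other genes of the pathway was examined by role. Of the 41 that could be tested, 22 were higher, 2 lower and 17 not called, which is 58.5% called, against 35.9% of all tested genes. Their median log2 fold change was 0.43. CLSPN, RFC2, RPA2 and TIPIN also belong to the S phase list and CDC25C to the G2/M list used below, so the counts are not separate from those.

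The subunits that share a complex with RAD17 were called, unlike RAD17 itself, and the difference between them was not tested. RFC2, RFC3, RFC4 and RFC5, the small subunits of the clamp loader, all rose, with log2 fold changes from 0.84 (RFC4) to 1.17 (RFC3). RFC3 went from 16.5, 17.9 and 20.7 CPM in si-NC samples to 39.1, 46.5 and 37.9 CPM in si-METTL16 samples. The ratio of RAD17 to the mean of the 4 subunits, looked at after their values were known and therefore not tested, was 3.09, 2.52 and 2.54 in si-NC and 1.51, 1.31 and 1.36 in si-METTL16 samples. CHTF18 and ATAD5, which replace RAD17 in other clamp loaders, rose with log2 fold changes of 1.07 and 1.50. The RFC subunits also serve the loader of the replication clamp PCNA.

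Among the genes that lie upstream of ATR, RPA1 and RPA2 rose (log2 fold changes 0.86 and 0.52) and RPA3, the smallest RPA subunit, was not called (-0.04, adjusted p = 0.725). TOPBP1, the ATR activator at the clamp, rose (log2 fold change 0.64, adjusted p = 0.00154), from 163, 140 and 175 CPM to 252, 241 and 251 CPM. The fork proteins TIMELESS, WDHD1 and CLSPN, claspin among them being the adaptor that presents CHK1 to ATR, rose with log2 fold changes of 0.85, 1.00 and 0.85. TIPIN, the partner of TIMELESS, was at 0.43 and did not pass (adjusted p = 0.0756). The clamp paralog RAD9B was low, with a mean of 0.156 FPKM in si-NC cells, and not called, and HUS1B had too few counts to be tested.

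The kinases of the ATR family went in different directions. ATM and PRKDC (DNA-PK), which respond to broken ends, rose with log2 fold changes of 0.35 (adjusted p = 0.0027) and 0.54 (adjusted p = 8.3e-04). ATR and SMG1, a kinase of nonsense-mediated decay, fell with -0.30 and -0.24 (adjusted p = 0.00973 for SMG1), and MTOR and TRRAP were at -0.08 and -0.01 without a call. The ratio of ATR to ATM in FPKM, also chosen after the values were seen, was 1.48, 1.53 and 1.53 in si-NC and 0.914, 0.994 and 1.00 in si-METTL16 samples. The groups did not overlap in this ratio, which follows from pairing a gene called lower with a gene called higher, and it was not tested. TELO2, TTI1 and TTI2, the co-chaperones that stabilise these kinases, were not called.

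Among the genes listed for the response to double-strand breaks, MDC1 and RNF8 rose with log2 fold changes of 0.62 and 0.72. MRE11 rose as well (0.32, adjusted p = 0.0158), a call that was lost without si-NC replicate 3 (adjusted p = 0.0589). RAD50, NBN, TP53BP1 and RNF168 were not called, with log2 fold changes between -0.16 and 0.17.

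Downstream of the kinases, CDC25A and CDC25C, phosphatases that CHK1 and CHK2 hold in check, rose with log2 fold changes of 1.44 and 1.22. WEE1 and PKMYT1, the kinases that oppose them at CDK1, rose with 0.78 and 0.87. CDC25B was not called (0.16, adjusted p = 0.40). FBXO6, an adaptor for the degradation of CHK1, fell (log2 fold change -0.83, adjusted p = 0.0138), from 24.4, 16.3 and 17.9 CPM to 12.4, 9.04 and 11.5 CPM. The phosphatase genes PPM1D, PPP2CA and PPP1CA were not called. ZRANB3, a fork remodeller, was called (0.44, adjusted p = 0.0232), but not without si-NC replicate 1 (adjusted p = 0.0734), si-NC replicate 2 (0.0701) or si-METTL16 replicate 2 (0.0723), nor on FPKM values. The other fork remodeller on the list, SMARCAL1, was not called (adjusted p = 0.994).

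**Figure D4:**
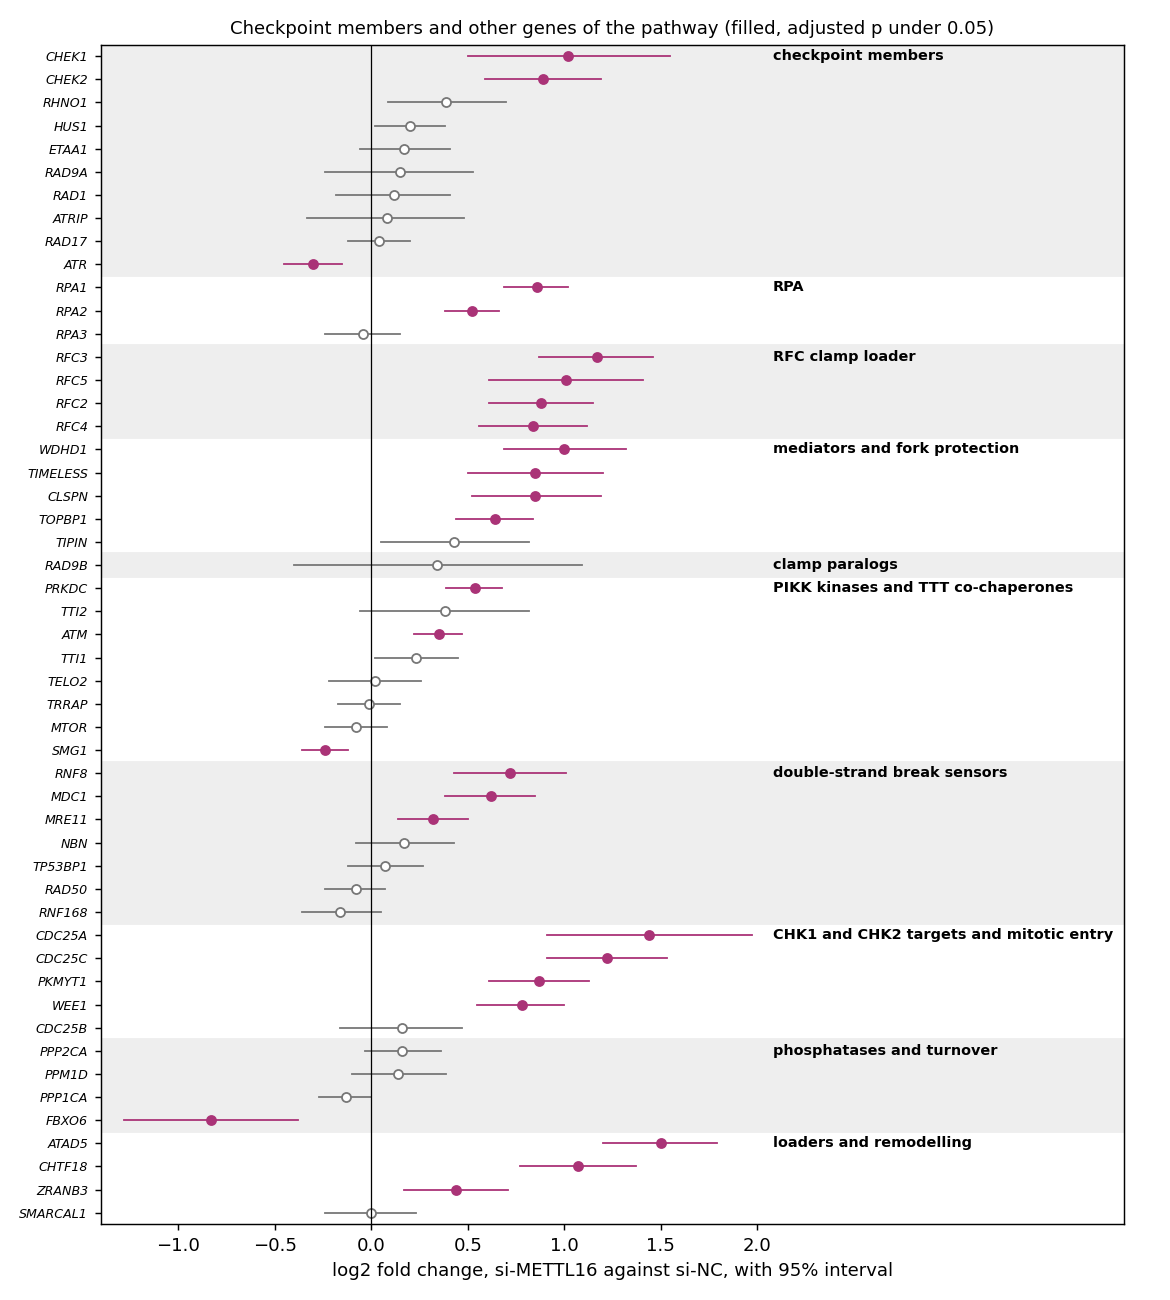
Log2 fold change, si-METTL16 against si-NC (horizontal axis), with 95% interval, of the 10 members and of 41 other genes of the pathway, grouped by role; filled points passed an adjusted p of 0.05. All 4 RFC subunits lie to the right of RAD17, and FBXO6, ATR and SMG1 are the called genes to the left of 0.

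Genes of the dividing cell moved with the groups. Of 43 S phase genes, 39 were higher, 0 lower and 4 not called, and of 54 G2/M genes 51 were higher, 1 lower and 2 not called. Over all tested genes, 18.4% were higher and 17.5% lower. Relative to the si-NC mean, the average log2 CPM of the S phase list was 0.91, 1.10 and 1.01 in si-METTL16 replicates 1, 2 and 3, and -0.14, 0.14 and 0.00 in the si-NC samples. CHEK1 was at 1.38, 1.05 and 0.59 in the same 3 silenced samples and at -0.30, 0.29 and 0.01 in the controls. CHEK2 was at 0.97, 0.73 and 0.98 in the silenced samples and at 0.16, 0.05 and -0.22 in the controls. Among the controls CHEK1 ranked the samples as the S phase list did, and CHEK2 did not. The G2/M list, at -0.13, 0.07 and 0.05 in si-NC replicates 1, 2 and 3, gave the same order. The match is therefore not particular to S phase genes, and an order of 3 samples is weak evidence. In the silenced samples the G2/M list was at 1.00, 1.10 and 1.06, and neither kinase gene followed the order of either list. The part of cell cycle phase in the rise of CHEK1 and CHEK2 was not tested.

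The genes closest to CHEK1 in pattern were PRDM1, RFC4 and ZSWIM6, out of 7472 tested genes that have a symbol other than a clone name and a mean CPM at or above the median. Likeness was the root mean square difference of log2 CPM, each relative to its si-NC mean, over the 6 samples, and was 0.18, 0.21 and 0.22. RFC4 was the only one of them on the pathway list, at 0.97, 0.82 and 0.73 in the silenced samples.

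Of 15 genes that overlap a member or start within 1000 bases of it on the opposite strand, 10 could be tested, and 3 were called higher and 3 lower, where 18.4% and 17.5% of all tested genes were. CHEK2 starts 391 bases from HSCB, a co-chaperone of iron-sulfur cluster assembly, and their annotated spans overlap by 392 bases. HSCB fell from 11.4, 14.6 and 11.5 CPM in si-NC to 8.23, 8.46 and 8.46 CPM in si-METTL16 samples (log2 fold change -0.58, standard error 0.14, adjusted p = 0.0152), while CHEK2 rose. The ratio of CHEK2 to HSCB in FPKM was 0.714, 0.518 and 0.545 in si-NC and 1.74, 1.43 and 1.70 in si-METTL16 samples. BRIX1, a factor of ribosome assembly whose span overlaps that of RAD1 on the opposite strand, rose from 53.7, 53.4 and 54.0 CPM to 67.6, 76.9 and 72.5 CPM (log2 fold change 0.43, adjusted p = 0.00387), whereas RAD1 was not called. The ratio of RAD1 to BRIX1 was 0.378, 0.422 and 0.506 in si-NC and 0.342, 0.343 and 0.366 in si-METTL16 samples. The ratios of members to neighbours were chosen after the values were seen and carry no test.

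RHNO1 starts beside FOXM1, a transcription factor of G2/M genes, with 898 bases of overlap between the spans. FOXM1 rose from 25.4, 31.9 and 28.3 CPM to 61.0, 73.9 and 76.2 CPM (log2 fold change 1.30, adjusted p = 4.0e-04), a larger difference than that of RHNO1, and the RHNO1 to FOXM1 ratio was 0.794, 0.787 and 0.687 in the controls and 0.424, 0.42 and 0.37 in the silenced samples. RAD17 starts beside TAF9 and AK6, which share a start region. TAF9, a subunit of TFIID, rose (log2 fold change 0.84, adjusted p = 0.00144), and AK6, an adenylate kinase, was not called (-0.10, adjusted p = 0.653). The sources do not say whether counting used strand, so reads from overlapping exons on opposite strands may have been split or shared. In GENCODE v44 the exons of RHNO1 and FOXM1 and those of RAD1 and BRIX1 share 0 bases. Those of CHEK2 and HSCB share 293 bases (6.52% of the exonic bases of CHEK2). RAD17 shares 380 exonic bases with TAF9 (9.14%) and 210 with AK6 (5.05%). RAD9A shares 230 (5.52%) with PPP1CA on the opposite strand, which had 16481 counts over all samples against 1166 for RAD9A. On the same strand, CHEK1 shares 53 (0.946%) with STT3A, which had 30764 counts against 5045 for CHEK1, and RHNO1 shares 60 (2.27%) with TULP3. ATRIP shares 26.7% of its exonic bases with TREX1 on the same strand, and TREX1 had 15 counts over all samples against 829 for ATRIP, so the assignment of reads between them is uncertain. TULP3, on the strand of RHNO1, was called lower (-0.40 on the log2 scale, with an adjusted p of 0.0316), but the call was lost without si-NC replicate 2 or 3 and without si-METTL16 replicate 1 or 2 (0.0789, 0.0893, 0.0799 and 0.0799) and without a filter on low genes (0.056).

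**Figure D5:**
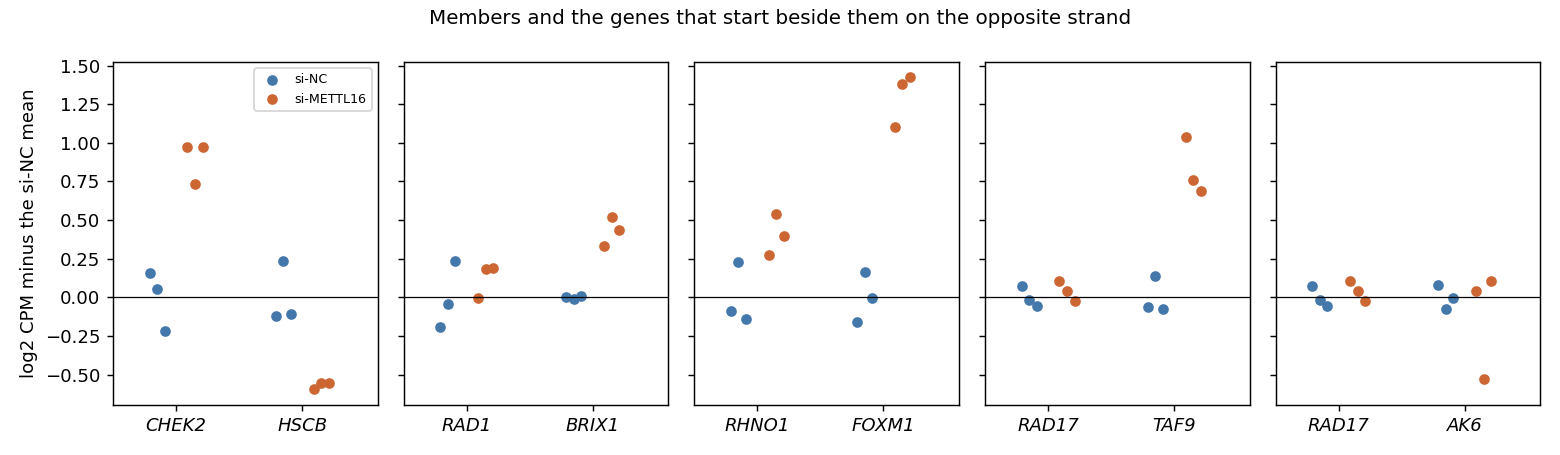
Log2 CPM minus the si-NC mean (vertical axis) of a member (left) and of an overlapping gene on the opposite strand (right) in the 3 si-NC and 3 si-METTL16 samples. CHEK2 and HSCB moved in opposite directions, and BRIX1, FOXM1 and TAF9 were above all controls while RAD1 and RAD17 overlapped them.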

How the data were processed

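RNA-seq of 6 PANC-1 samples, 3 per group, was used. Sample titles gave the groups and replicate numbers. For each gene the table deposited by the authors holds raw counts and FPKM values, which scale the counts by gene length and by the sample total. The submitters' processing notes name HISAT2 2.0.4, StringTie 1.3.0 and GRCh38. The counting program, annotation release and use of strand are not given in the sources used here. Counts were scaled by TMM, filtered with filterByExpr (minimum count 10, minimum total 15) and tested by the quasi-likelihood method (glmQLFit, glmQLFTest) of edgeR 4.0.16 under R 4.3.3. P-values were adjusted by Benjamini-Hochberg over 15089 genes with a threshold of 0.05. The methods name limma for this comparison, and limma 3.58.1 and DESeq2 1.42.0 served as alternatives. Standard errors and 95% intervals were derived from each gene's F statistic. The smallest chi-square per degree of freedom between replicates was 10.4. At these depths 3 counts equal 0.166 to 0.191 CPM, and the precision covers counting error and the spread of 3 samples, which the methods call biological triplicates. The scripts were tested on simulated data.

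The members, the pathway list (written from general knowledge), the S phase and G2/M lists of the Seurat package (from memory, 3 symbols updated) and the markers were chosen with earlier results of these data known. Genes named are the members, METTL16, genes of the pathway list, neighbours that overlap a member or start within 1000 bases of it on the opposite strand, and the 3 genes most like CHEK1. BRIX1 is a neighbour by overlap. Strand and exons came from GENCODE v44. Of the 10 members, 4 have the same coordinates in both. The alternatives were a replicate block, omission of each sample, 2 filters, DESeq2 size factors, the DESeq2 Wald test, limma on voom values and on log2(FPKM + 1) and log2(FPKM + 0.1), and an adjusted p under 0.01. Python 3.11.15, numpy 2.4.6 and pandas 2.3.3 were used for ratios and sequences.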

Additional observations from a re-analysis of the deposited data

How the results depend on the processing

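CHEK1, CHEK2 and ATR were called in each of 14 alternatives at an adjusted p under 0.05, with log2 fold changes from 0.78 to 1.21, 0.65 to 0.97 and -0.34 to -0.27. RHNO1 passed in 5, and the other 6 members in none of those that could be run (12 for ATRIP, whose mean FPKM is under 1). When 1 sample was left out, ATRIP changed sign (-0.05 to 0.15) and RAD17 lay between 0.00 and 0.07. At an adjusted p under 0.01, CHEK2 and ATR still passed and CHEK1 (0.0112) did not, 3035 genes were called over the whole table against 5418 at 0.05, and 3 of the 6 called neighbours (FOXM1, TAF9 and BRIX1) still passed. POLD4, within the annotated span of RAD9A, was called lower (-0.81, adjusted p = 0.024), but not without si-METTL16 replicate 1 (0.0633) or 2 (0.0776). Both groups use the same replicate numbers. Deviations of same-numbered samples correlated at only 0.0253 to 0.0371, which does not settle whether the samples were paired. Each sample did correlate best with its own number (other pairs, -0.0388 to 0.00827), a hint from the data and not from the design. With the replicate block 4 members passed, RHNO1 being the addition, and 5013 genes in all. With counts in place of FPKM the 5 ratio differences were equal to 2 decimals, and when 1 sample was left out the ATR to ATRIP difference kept its sign (-0.49 to -0.24) while the other 4 did not. ATRIP and RAD9A, the lowest members, are limited by depth, with 112 to 257 counts per sample.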
